A study of Mus musculus with 4 samples.

Results

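The genes described here encode tensins, linkers with SH3 or LIM domains, actin filament-associated proteins and proteins that tie integrins to actin. Also included are genes for the kinases and scaffolds around these proteins, actin crosslinkers, and integrin alpha and beta subunits. Together these are 39 mouse genes of the actin-linked adhesion machinery. They were given as a list of gene names, and all 39 were found by symbol among the 21887 protein-coding genes of chromosomes 1 to 19, X and Y. They were chosen with results of these same data known, so their values are descriptions and no test was run on them. RNA polymerase II (Pol II) was mapped with ChIP-seq in C57BL/6 mice, in their hearts, kidneys, livers and lungs, using the 4H8 antibody against the carboxy-terminal domain of the polymerase. The labels state no allele or treatment, and age and sex were not given. The organs came from 2 mice and were frozen before crosslinking. For each organ 1 list of called Pol II regions was used, and whether it joins both mice is not stated. Each organ is therefore n = 1, so values carry no error between replicates, and the differences between organs given below were not checked in a second list.

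Integrins are pairs of an alpha and a beta subunit that span the cell membrane and bind matrix proteins such as fibronectin, laminin and collagen. Inside the cell, talins and kindlins switch integrins on, while vinculin, tensins, filamins and alpha-actinins hold them to actin. Focal adhesion kinase, paxillin, integrin-linked kinase, parvins and PINCH proteins pass signals on. In heart many of these proteins sit in costameres and intercalated discs, and in kidney and lung they anchor epithelia to basement membranes.

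Pol II over a gene was measured as the covered percent, the share of the annotated span, introns included, that lay inside regions of a list, and a gene counted as covered at 50% or more. The second measure was tags per kb of span, in which the tags of each region, scaled by the authors to 10000000 per library, were shared evenly over its length. In heart 16 of the 39 genes were covered, where 16.1% of all protein-coding genes were. Kidney also had 16, where 21.1% of all genes were covered. Liver had 15, beside 21.9%, and lung had 11, beside 15.1%. As shares of the group these are 41.0% in heart and kidney, 38.5% in liver and 28.2% in lung. Because the choice of members drew on these lists, nothing is read from the gap to all genes. The median covered percent of the 39 genes was 43.9 in heart, 32.3 in kidney and 28.7 in liver, with 27.7 in lung, where the medians of all genes were 2.26, 5.07, 2.76 and 3.88. The median gene of the group had 10.4 tags per kb of span in heart, 8.42 in kidney and 5.13 in liver, with 5.16 in lung, where no median of all genes passed 0.907.

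Many of these genes are long, and 25 of the 39 span at least 50 kb. Of those 25, 10 were covered in heart, 11 in kidney and 8 in liver, with 7 in lung, where 7.5%, 9.69%, 11.8% and 5.93% of all genes of that length were. Among the 14 shorter members the counts were 6, 5, 7 and 4 in the same order of organs, where 18.6%, 24.5%, 24.9% and 17.8% of all shorter genes were covered. A region within 1 kb of either end of the gene was more common than coverage of the span. Such a region was present at 35 members in heart, 31 in kidney and 28 in liver, with 35 in lung, beside 51.4%, 56.8%, 53.3% and 54.7% of all genes. Within the span, 32 members held a region in all 4 lists and 7 lacked one in at least 1 list. The share of all genes with a region in all 4 lists was not computed, so nothing is read from these 2 counts. Taken list by list, the liver regions missed 7 members, beside 43.3% of all genes. The heart, kidney and lung regions each missed 1 member, beside 43.0%, 39.0% and 39.7% of all genes.

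**Figure D1:**
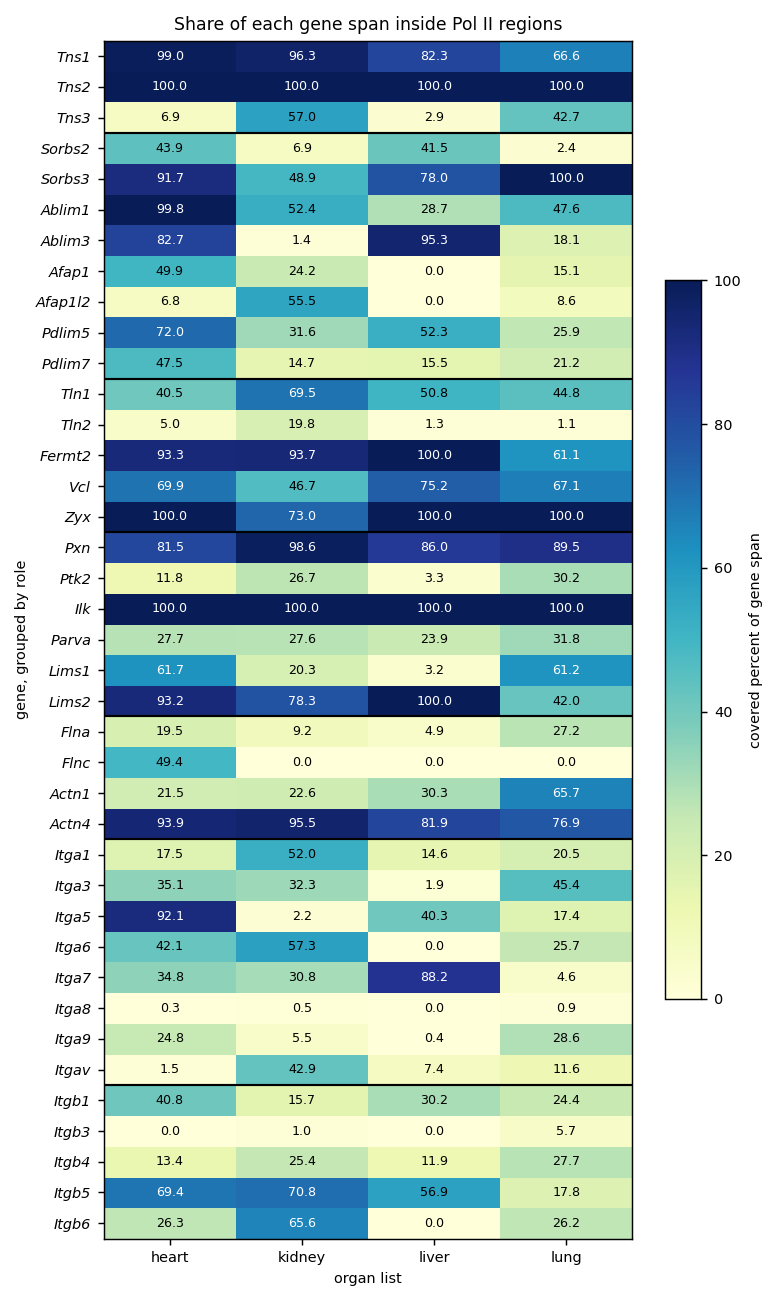
Covered percent of span for the 39 genes (rows, grouped by role) in the 4 organs (columns), from 0 to 100%. Tns2 and Ilk are at 100% in all 4 columns, while Itga8 is under 1% in each.

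The libraries differ in depth, and this bears on what a list can hold. They rested on 9880184 tags for heart, 16589890.5 for kidney, 20058183 for liver and 13296938 for lung. The caller's threshold of 9, 12, 14 and 11 tags per 500 bp window came to 18.2, 14.5, 14 and 16.5 scaled tags per kb, so heart, the shallowest library, needed the densest signal. The lists held 81887, 88200, 61956 and 101051 regions covering 163, 200, 210 and 161 Mb. Intervals below are exact Poisson 95% intervals of tag counts and cover counting error only. Against the organ labels, all 5 cardiomyocyte genes were covered in heart and in no other list, and the same held for all 5 tubule genes in kidney and all 5 hepatocyte genes in liver. All 5 lung epithelial genes were covered in lung, but Ager was also covered in the other lists, and Sftpc was covered over 74.7% in liver, at 23.6 tags per kb of span, where lung had 22.9.

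The 7 members covered in all 4 lists were Tns1, Tns2, Fermt2, Zyx, Pxn, Ilk and Actn4, where 8.04% of all genes were covered in every list. They encode adaptors, a pseudokinase and an actin crosslinker, and none is an integrin. With every region that touches another protein-coding gene left out, only Tns1 and Fermt2 of these 7 were covered in all 4 lists. At 50 kb and above, 4 of 25 members were covered in all 4 lists, beside 1.52% of such genes, and 9 of 25 in none, beside 78.9%. Another 4 members were covered in 3 lists (4.91% of all genes), 5 in 2 lists (7.2%) and 8 in 1 list (13%). The remaining 15 reached 50% in no list, as did 66.9% of all genes: Sorbs2, Afap1, Pdlim7, Tln2, Ptk2, Parva, Flna, Flnc, Itga3, Itga8, Itga9, Itgav, Itgb1, Itgb3 and Itgb4. Of the 156 values, 11 lay within 5 points of 50%. Just inside were Tln1 in liver (50.8%), Itga1 in kidney (52%), Pdlim5 in liver (52.3%) and Ablim1 in kidney (52.4%). Just outside were Afap1 in heart (49.9%), Flnc in heart (49.4%), Sorbs3 in kidney (48.9%), Ablim1 in lung (47.6%), Pdlim7 in heart (47.5%), Vcl in kidney (46.7%) and Itga3 in lung (45.4%).

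The median covered percent was lower over the integrins than over the adaptors in each list. Of the 13 integrin members, 6 were covered in at least 1 list and only Itgb5 in more than 1. Of the 26 adaptor, kinase and actin-binding members, 18 were covered in at least 1 list and 15 in at least 2. Of all genes, 33.1% were covered in at least 1 list and 20.1% in at least 2. The median covered percent of the integrins was 26.3 in heart, 30.8 in kidney and 7.44 in liver, with 20.5 in lung. For the 26 others it was 65.8, 47.8, 46.1 and 43.8. No integrin member was covered in lung, where Itga3 came closest.

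Tensins bind both the tails of beta integrins and actin. Tns1, on chromosome 1, was covered over 99% of its span in heart, 96.3% in kidney and 82.3% in liver, with 66.6% in lung. Its tags per kb of span had the same order, at 52.2, 47.4, 23.4 and 14.6. In heart the longest region over the gene was 192 kb (chr1:73899533-74091866) with 10796.9 tags, rank 5 in that list by tags. The kidney counterpart, 185 kb with 10014.2 tags (chr1:73901127-74086237), had the most tags of all 88200 kidney regions. Region densities were 56.1 tags per kb in heart (55.1 to 57.2) and 54.1 in kidney (53.3 to 54.9). In liver the strongest region was 99.8 kb long at 35.5 tags per kb, rank 124, and in lung it was 20.3 kb long at 26.4 tags per kb, rank 353. The annotated start of Tns1 lay inside a separate region in heart (25.3 kb) and kidney (9.82 kb). The nearest liver region was 0.208 kb from that start and the nearest lung region 30.3 kb, so in lung the covered part was away from the start. Among 4944 other genes of at least 50 kb, the covered percents nearest to those of Tns1 over the 4 lists were those of Actn4 (summed difference 16.4 points), Ahdc1 (16.9), Nedd4 (25.6), Foxo3 (25.8) and Fgf1 (27.2).

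Tns2, a shorter gene on chromosome 15, was covered over its whole span in every list. It had 70.8 tags per kb of span in heart, 37.5 in liver, 31.4 in kidney and 31.2 in lung, so heart was 1.89-fold liver, the next. Its regions run on over the neighbours Eif4b and Spryd3, and the signal of these genes cannot be told apart there. Tns3 was covered over 57% of its span in kidney and 42.7% in lung, but 6.93% in heart and 2.93% in liver. Its tags per kb of span were 11.3 in kidney and 7.94 in lung, but 1.51 in heart and 0.519 in liver. Among the tensins the lowest coverage thus fell in lung for Tns1 and in liver for Tns3, while Tns2 was equal in all lists.

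**Figure D2:**
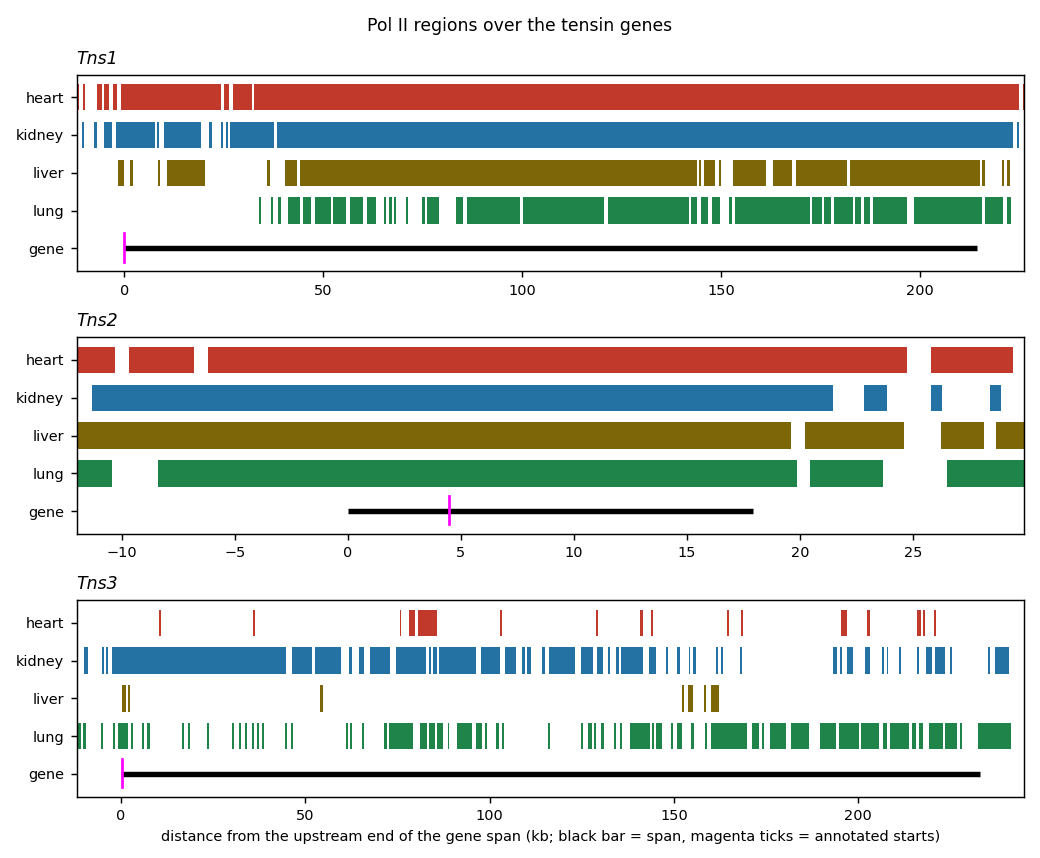
Called regions over Tns1, Tns2 and Tns3 in the 4 organs, as distance in kb from the upstream end of the gene (x axis) by organ (rows), with the span as a black bar. Tns1 is filled nearly throughout in heart and kidney and empty near its start in lung, Tns2 is filled in all rows, and Tns3 is filled mainly in kidney and lung.

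The sequences before the starts of Tns1 and Tns2 are shown because the Tns2 start lay in a region in all 4 lists and the Tns1 start in heart and kidney only, while Tns1 has far more CpG. Each is the 250 bases before the annotated start, 5′ to 3′ on the gene's own strand, from RefSeq on GRCm38.p6, with every CpG in capitals. The Tns1 stretch (chr1:74124549-74124798, minus strand) holds 30 CpG and the Tns2 stretch (chr15:102102684-102102933, plus strand) holds 2.
Tns1: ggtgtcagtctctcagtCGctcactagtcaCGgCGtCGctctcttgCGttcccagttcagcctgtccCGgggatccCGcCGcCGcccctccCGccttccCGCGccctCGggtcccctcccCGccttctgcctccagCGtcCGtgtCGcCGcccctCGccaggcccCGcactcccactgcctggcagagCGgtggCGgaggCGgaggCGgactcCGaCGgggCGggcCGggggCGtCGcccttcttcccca
Tns2: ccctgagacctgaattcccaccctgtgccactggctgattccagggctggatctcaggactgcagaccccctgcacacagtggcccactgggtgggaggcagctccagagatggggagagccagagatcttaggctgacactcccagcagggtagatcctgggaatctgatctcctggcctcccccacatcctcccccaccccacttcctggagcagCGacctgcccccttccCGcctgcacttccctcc
The ratio of observed to expected CpG in the 300-base window, which runs 50 bases past the start, was 0.871 for Tns1 and 0.0708 for Tns2. The regions at the Tns2 start begin 10.7 to 31.1 kb upstream of it, and without regions that touch another gene Tns2 was at 0 in all 4 lists, so they cannot be assigned to Tns2 alone.

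Among the linkers with SH3 or LIM domains, Ablim1, a LIM protein that binds actin filaments, had the longest region. It was covered over 99.8% of its span in heart, 52.4% in kidney and 28.7% in liver, with 47.6% in lung. Its tags per kb of span were 49.4 in heart, 4.74-fold kidney at 10.4, with 9.24 in lung and 5.95 in liver. In heart a region of 201 kb (chr19:57026958-57227782) held 10248.8 tags, rank 6 in the list. It also reaches into Afap1l2 with 0.812% of its length, the only region that members shared. Without regions that touch another gene, this one is dropped although 97.1% of it lies inside Ablim1. Ablim1 in heart then came to 30.8%, which follows from the drop and gives no order of organs.

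Ablim3, its relative, was covered over 95.3% in liver and 82.7% in heart, but 18.1% in lung and 1.43% in kidney. Its tags per kb of span were 25.5 in heart and 24.7 in liver, but 3.46 in lung and 0.234 in kidney. Liver thus had the highest coverage of Ablim3 and the lowest of Ablim1. Sorbs2 and Sorbs3 (vinexin) encode SH3 adaptors that bind vinculin. Sorbs2 was covered over 43.9% in heart and 41.5% in liver, but 6.89% in kidney and 2.40% in lung. Sorbs3 was covered over 100% in lung, 91.7% in heart and 78% in liver, but 48.9% in kidney. The lung region at Sorbs3, 62.5 kb long and rank 11, lies 50.5% inside the gene and also touches Ccar2, Pdlim2 and 9930012K11Rik. Without regions that touch another gene, Sorbs3 came to 85% in heart, 42.9% in liver and 23.8% in kidney. In lung it came to 0, because that single region holds the whole gene and is dropped, so the 0 gives no order of organs. Its tags per kb of span were highest in lung, at 33.3, with 26.9 in heart, 20.6 in liver and 9.30 in kidney.

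Afap1 and Afap1l2 encode actin filament-associated proteins that bind Src. Afap1 was highest in heart, at 49.9%, with 24.2% in kidney, 15.1% in lung and no region in liver. Afap1l2 was covered over 55.5% in kidney, with 8.55% in lung, 6.75% in heart and no region in liver. Its 10.9 tags per kb of span in kidney were 6.28-fold those of heart at 1.73. The Afap1l2 value in kidney was 48.1% without shared regions. Pdlim5, a PDZ and LIM protein of the Z-disc, was covered over 72% in heart and 52.3% in liver, but 31.6% in kidney and 25.9% in lung. Its heart region of 110 kb held 4147.7 tags and had rank 32. Pdlim7, its relative, was also highest in heart, at 47.5% of its span and 11.8 tags per kb of span, 3.11-fold the next organ, with 14.7% to 21.2% covered elsewhere. Of the 8 genes in this role, which counts Afap1 and Afap1l2 with the linkers, heart had 4 covered, liver 3, kidney 2 and lung 1. The shares of all genes were 16.1% in heart, 21.9% in liver, 21.1% in kidney and 15.1% in lung. With 8 genes, nothing is read from the gap to those shares.

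**Figure D3:**
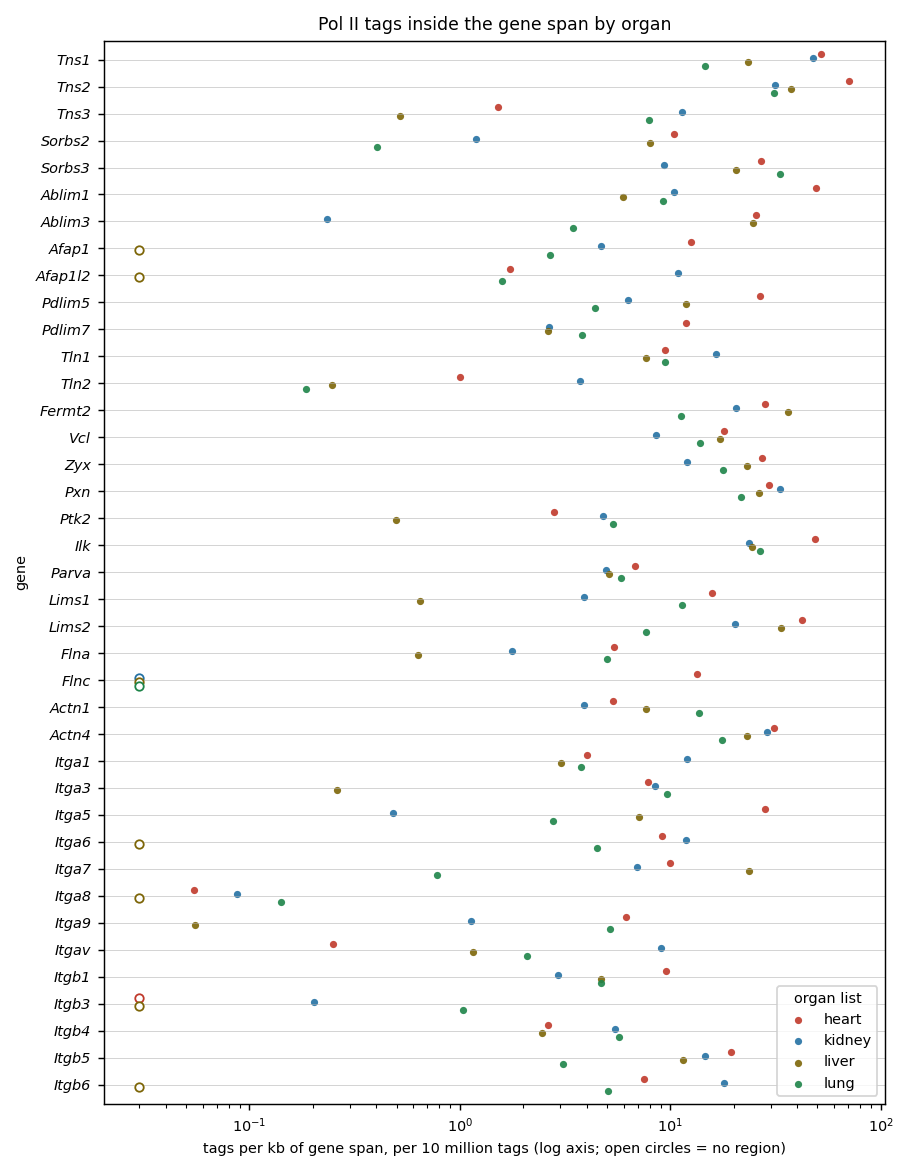
Scaled tags per kb of gene span (x axis, log scale) for each of the 39 genes (rows), 1 point per organ, with open circles for no region. Heart is the highest point for 21 genes, among them Tns2, Ablim1 and Itga5, while the kidney point leads for Afap1l2, Itgav and Itgb6.

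Of the 5 genes for proteins that activate integrins or tie them to actin, 4 were covered in liver and 3 in each other list. Of all genes, 21.9% were covered in liver, 16.1% in heart, 21.1% in kidney and 15.1% in lung. With 5 genes, nothing is read from the gap to those shares. Fermt2 encodes kindlin-2, which binds beta tails beside talin. It was covered over 100% in liver, 93.7% in kidney and 93.3% in heart, with 61.1% in lung. Zyx encodes zyxin, a protein of adhesions and stress fibres, and was covered over 100% in heart, liver and lung, with 73% in kidney. Without regions that touch another gene it came to 53.3% in kidney and 0 in heart, liver and lung. In those 3 lists a single region holds the whole gene and touches Epha1, so the 0 follows from dropping it and gives no order of organs. Vcl encodes vinculin, which links talin to actin, and was covered over 75.2% in liver, 69.9% in heart and 67.1% in lung, but 46.7% in kidney. The liver region at Vcl (chr14:21022933-21360561) is 338 kb long with 18507.4 tags, rank 3 in the list. Only 3.18% of it lies inside Vcl, and it runs on over Ap3m1 and Adk. The genes of at least 50 kb nearest to Vcl in covered percent were Mbnl1 (summed difference 19 points), Ide (25.2), Plec (32.9), Ankrd11 (37.9) and Akap13 (39.1).

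The talins differed from each other. Tln1, the talin of most cells, was covered over 69.5% in kidney and 50.8% in liver, with 44.8% in lung and 40.5% in heart. Without regions that touch another gene, it came to 33.8% in kidney and 40.3% in liver. Tln2, the longest of the 39 genes, was highest in kidney too, at 19.8%, with 5.04% in heart, 1.34% in liver and 1.11% in lung. Its 3.74 tags per kb of span in kidney were 3.75-fold those of heart.

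The signalling scaffolds ran from complete coverage to little. Ilk, which encodes integrin-linked kinase, was covered over its whole span in all 4 lists, with 48.9 tags per kb of span in heart, 26.5 in lung, 24.3 in liver and 23.8 in kidney. Its regions extend over Rrp8, Taf10 and Tpp1, and without them Ilk was at 0 in each list. Pxn, which encodes paxillin, was covered over 98.6% in kidney, 89.5% in lung, 86% in liver and 81.5% in heart. Without regions that touch another gene, Pxn in kidney came to 0, because a region that holds 92.6% of the gene is dropped. That 0 gives no order of organs. Ptk2, which encodes focal adhesion kinase, was covered over 30.2% in lung and 26.7% in kidney, but 11.8% in heart and 3.30% in liver. A region of 5.76 kb at Ptk2 in heart held 51.5 tags per kb (45.8 to 57.7), so a dense region there went with a low covered share. Parva, which encodes alpha-parvin, an actin-binding partner of integrin-linked kinase, was covered over 31.8% in lung, 27.7% in heart, 27.6% in kidney and 23.9% in liver, a range of 7.93 points.

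Lims1 and Lims2 encode PINCH1 and PINCH2, LIM proteins that bind integrin-linked kinase. Lims2 was covered over 100% in liver, 93.2% in heart and 78.3% in kidney, but 42% in lung. Lims1 was covered over 61.7% in heart and 61.2% in lung, but 20.3% in kidney and 3.18% in liver. The liver region at Lims2 also covers or touches Wdr33, Sft2d3, Gpr17 and Myo7b. Without regions that touch another gene, Lims2 came to 62.8% in kidney and 42% in lung, with 4.61% in heart and 0 in liver, while each Lims1 value was the same. The Lims2 values in heart and liver follow from dropping a region that holds most or all of the gene. They give no order of organs. Lims1 has annotated starts at 0, 28.4 and 47.9 kb. The first lay in a region in all 4 lists, the second in heart only, and the third in kidney and lung. These calls at the later starts are narrow. The heart region at the second is 0.5 kb long, and regions lie 0.093 kb from that start in kidney and 0.103 kb in lung. At the third start a heart region lies 0.287 kb away. The 250 bases before each start are printed because the start that lay in regions in all lists is rich in CpG and the others are not. All are on the plus strand in GRCm38.p6, at chr10:58323297-58323546, chr10:58351713-58351962 and chr10:58371204-58371453, from RefSeq, 5′ to 3′, with every CpG in capitals.
Lims1 start at 0 kb: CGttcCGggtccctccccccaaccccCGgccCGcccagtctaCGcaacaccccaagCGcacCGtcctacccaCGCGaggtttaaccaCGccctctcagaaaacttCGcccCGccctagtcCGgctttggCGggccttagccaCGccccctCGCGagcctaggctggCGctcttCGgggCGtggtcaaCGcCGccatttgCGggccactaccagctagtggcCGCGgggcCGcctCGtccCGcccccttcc
Lims1 start at 28.4 kb: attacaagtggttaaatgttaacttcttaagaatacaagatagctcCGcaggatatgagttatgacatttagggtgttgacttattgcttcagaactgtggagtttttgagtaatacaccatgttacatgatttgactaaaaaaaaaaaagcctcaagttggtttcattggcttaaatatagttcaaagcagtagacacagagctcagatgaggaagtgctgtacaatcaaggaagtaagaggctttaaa
Lims1 start at 47.9 kb: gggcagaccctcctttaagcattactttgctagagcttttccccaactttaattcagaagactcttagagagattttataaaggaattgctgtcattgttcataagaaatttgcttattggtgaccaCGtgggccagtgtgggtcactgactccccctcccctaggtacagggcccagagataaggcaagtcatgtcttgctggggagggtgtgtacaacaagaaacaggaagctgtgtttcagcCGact
They hold 28, 1 and 2 CpG, and the ratio of observed to expected CpG in the 300-base windows was 0.966 for the first and 0.111 for each of the others.

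Among the actin crosslinkers, Actn4, the alpha-actinin of podocytes and many other cells, was covered over 95.5% in kidney, 93.9% in heart and 81.9% in liver, with 76.9% in lung. Its kidney and liver regions run over Eif3k and Map4k1, and without regions that touch another gene Actn4 came to 0 in kidney and 6.70% in liver, with 90.1% in heart and 76.9% in lung. The kidney and liver values follow from dropping a region that holds most of the gene and give no order of organs. Actn1, its relative, was covered over 65.7% in lung, with 30.3% in liver, 22.6% in kidney and 21.5% in heart. In lung Actn1 had 13.7 tags per kb of span, 1.79-fold liver. Flna and Flnc encode filamins, which crosslink actin and bind beta integrins, and Flnc is the form of striated muscle. Flnc was covered over 49.4% in heart, at 13.3 tags per kb of span, and no region of the other lists touched its span. Flna, the widely expressed form, was covered over 27.2% in lung and 19.5% in heart, but 9.20% in kidney and 4.91% in liver. The striated muscle form therefore had a region in heart alone, and the other form had regions in all 4 lists.

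Among the alpha subunits, Itga5, the partner of Itgb1 in the fibronectin receptor, stood apart in heart. It was covered over 92.1% there, with 40.3% in liver, 17.4% in lung and 2.22% in kidney. Its tags per kb of span were 28.3 in heart, 3.99-fold liver at 7.08, with 2.76 in lung and 0.480 in kidney. Itga7, a laminin receptor subunit best known from muscle, was covered over 88.2% in liver, with 34.8% in heart, 30.8% in kidney and 4.64% in lung. Only 27.7% of its liver region lies inside Itga7, the region also touches Mettl7b, and without shared regions the liver value was 49%. Itga5 was the only member with a lead of at least 50 points in heart, as had 1.04% of all genes, and Itga7 the only one in liver, as had 3.23%. No member had such a lead in kidney (1.49% of all genes) or lung (0.48%). No member lay as far below the next organ in heart (0.416%), kidney (0.0457%), liver (0.461%) or lung (0.416%).

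The other laminin receptor subunits were lowest in liver. Itga6 was covered over 57.3% in kidney, 42.1% in heart and 25.7% in lung, with no region in liver. Itga3 was covered over 45.4% in lung, 35.1% in heart and 32.3% in kidney, but 1.93% in liver. Its strongest regions in heart and kidney lie only 12.9% and 14.5% inside the gene and reach Pdk2, and in kidney also Samd14. Itga1, a collagen receptor subunit, was covered over 52% in kidney, with 20.5% in lung, 17.5% in heart and 14.6% in liver. It had 12 tags per kb of span in kidney, 3.01-fold the next organ. Its kidney region also touches Pelo, and without regions that touch another gene Itga1 came to 25.3% there.

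Of the subunits that recognise the RGD peptide of matrix proteins, Itgav was covered over 42.9% in kidney, with 11.6% in lung, 7.44% in liver and 1.51% in heart. Its 8.99 tags per kb of span in kidney were 4.30-fold those of lung. Itga8 was covered over 0.851% in lung, 0.512% in kidney and 0.256% in heart, with no region in liver. Itga5, Itgav and Itga8 thus each had a different highest organ, heart, kidney and lung, although the values of Itga8 are close to none. Itga9, a subunit that binds tenascin and other ligands, was covered over 28.6% in lung and 24.8% in heart, but 5.46% in kidney and 0.385% in liver.

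Among the beta subunits, Itgb5 was covered over 70.8% in kidney, 69.4% in heart and 56.9% in liver, but 17.8% in lung. Itgb6, the epithelial partner of Itgav, was covered over 65.6% in kidney, with 26.3% in heart, 26.2% in lung and no region in liver. Its kidney region (chr2:60684113-60724836) was 40.7 kb long with 1506.3 tags, rank 180. By coverage, kidney was thus the highest organ for Itgav and Itgb6. For Itgb5 kidney and heart were close in coverage, and heart led by tags per kb of span, with 19.5 there and 14.6 in kidney. Itgb3, which pairs with Itgav in vessels, was covered over 5.67% in lung and 1.02% in kidney, with no region in heart or liver. Itgb1, the shared partner of most alpha subunits, was covered over 40.8% in heart, 30.2% in liver, 24.4% in lung and 15.7% in kidney. Itgb4, the subunit of hemidesmosomes, was covered over 27.7% in lung and 25.4% in kidney, but 13.4% in heart and 11.9% in liver.

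The organ with the highest coverage was kidney for 11 members, heart for 10, lung for 10 and liver for 5, with 3 tied. By tags per kb of span heart led for 21, kidney for 9, lung for 7 and liver for 2, and the same organ led by both measures for 28 members. The lowest coverage was in liver for 15 members, lung for 9, kidney for 7 and heart for 4, with 4 tied. How often each organ leads or is lowest among all genes was not computed, so nothing particular to the members is read from these counts. Regions of the whole heart list were denser, with a median of 20.9 tags per kb, beside 17.3 in kidney, 15.2 in liver and 17.6 in lung. For 12 of the 39 genes the values ranged over at least 50 points, where 19.9% of all genes did so. Across the 39 genes, Spearman's rho of covered percent was highest for heart with liver, at 0.74, and lowest for heart with kidney, at 0.50. The other pairs gave 0.66 for kidney with lung, 0.58 for heart with lung, 0.56 for liver with lung and 0.53 for kidney with liver. Over all 21887 genes, heart with liver gave 0.67, the lowest of the 6 pairs, and heart with lung 0.80, the highest. These values describe genes that share libraries, a caller and the length of their spans, and genes are not replicates.

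Start sites and strand were at hand for 28 of the 39 genes. At some, such as Tns2, Afap1l2 and Itga9, the annotated start lies inside the span and not at its upstream end. The 28 genes have 41 starts. Of these starts, 33 lay in a region in heart, 31 in kidney and 24 in liver, with 26 in lung, beside 40.2%, 46.3%, 46% and 40.2% of the 21263 starts of all genes. Starts with a CpG ratio of at least 0.6 lay in regions in 19, 20, 14 and 16 of 22 cases, where 62.1%, 69.9%, 69.8% and 61.6% of all such starts did. Of those 22, 10 lay in regions in every list (46.3% of all such starts) and 1 in none (17.8%). Starts below that ratio lay in regions in 14, 11, 10 and 10 of 19 cases, where 20.2%, 24.7%, 24.4% and 20.7% of all such starts did. Of those 19, 5 lay in regions in every list (10%) and 1 in none (61.4%). The 19 starts are not independent, because Ablim1, Sorbs2 and Lims1 each have several of them and a single region can hold several. Genes with several starts differed between organs in which of them lay in a region. Ablim1 has 5 starts, at 0, 40.3, 98.9, 117 and 196 kb. Those at 40.3 and 117 kb lay in regions in every list, and that at 98.9 kb in heart and liver only. In heart a region of 101 kb held the starts at 0 and 40.3 kb, and a region of 201 kb held the others. The 201 kb region begins 11.8 kb upstream of the start at 98.9 kb, so the heart call there is not particular to that start. Sorbs2 has starts at 0, 120 and 154 kb, of which the first lay in a region in no list and the third in heart and liver only. The nearest regions to the third Ablim1 start lay 0.793 kb away in kidney and 1.64 kb in lung. For the third Sorbs2 start they lay 0.683 and 2.08 kb away. Itgb6 has a second start at 48.9 kb, which lay in a region in kidney and lung. Which starts were in use cannot be read from such calls, because a region over the gene body can also hold a start.

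**Figure D4:**
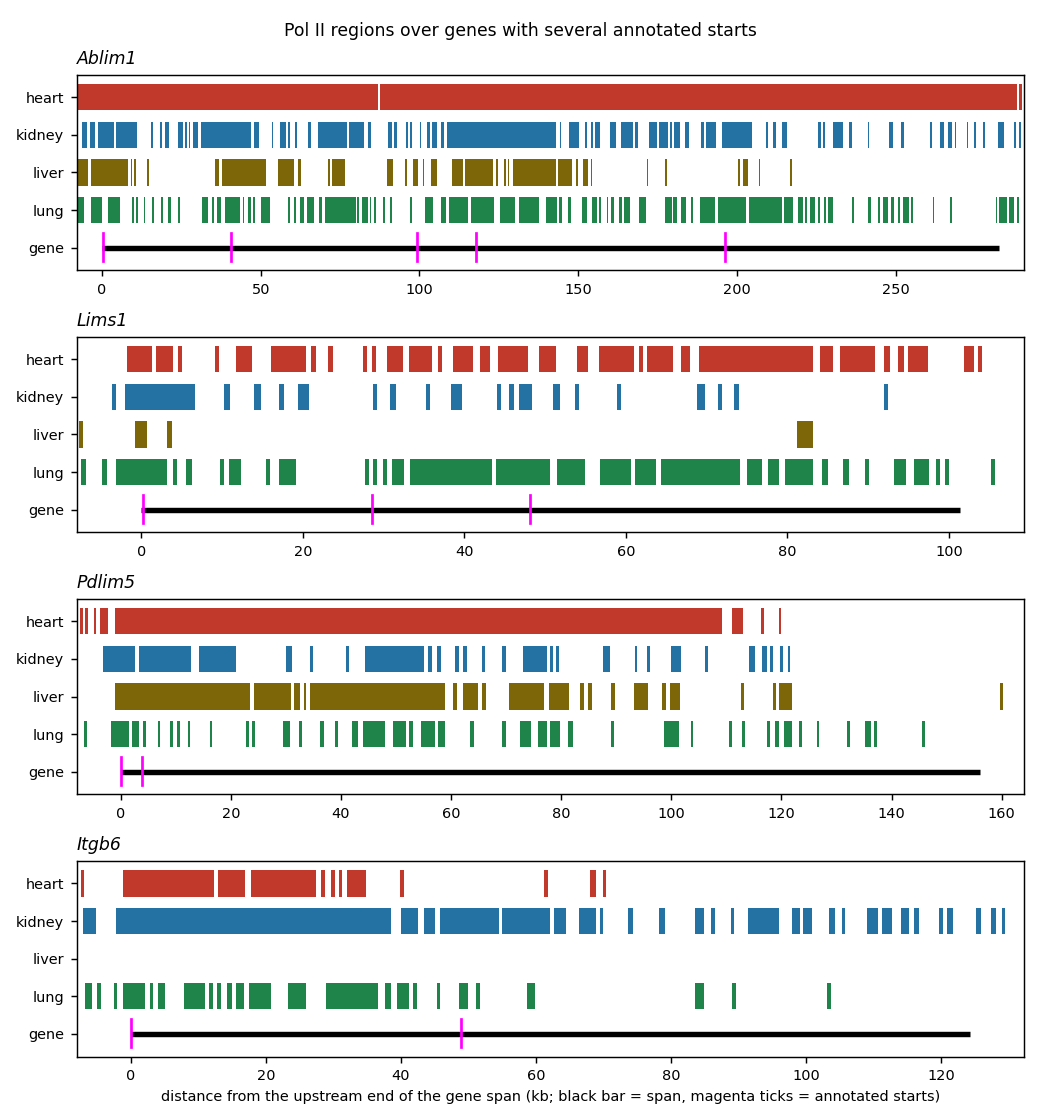
Called regions over Ablim1, Lims1, Pdlim5 and Itgb6 in the 4 organs, as distance in kb from the upstream end of the gene (x axis) by organ (rows), with annotated starts marked. The second Lims1 start is inside a region in heart alone, with regions 0.093 kb away in kidney and 0.103 kb away in lung.

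More of the gene was covered on the start side than on the end side in most of these 28 genes in heart, kidney and lung. With each gene split at its midpoint, the start side was covered more in 20 genes in heart, 20 in kidney and 14 in liver, with 18 in lung, where 37.5%, 40%, 35% and 41.3% of all genes did so. The end side was covered more in 5, 5, 5 and 6 genes, where 13.4%, 13.4%, 12.1% and 14.4% of all genes did so. In the rest, which include genes with no region, both sides were equal, and the shares of all genes count these too. Among all genes the start side also led more often than the end side in each list. Nothing particular to the members is therefore read from the lead of the start side. At 50 kb and above the start side led in 13, 14, 9 and 12 of 18, beside 49.8%, 54.4%, 48.3% and 54.3% of all such genes. The end side led in 5, 4, 4 and 6 of these 18, beside 20.2%, 20.2%, 19.6% and 19.7%. The median coverage of the start side was 55.9% in heart, 59.8% in kidney and 40.2% in liver, with 45.1% in lung, and that of the end side was 36.9%, 22.4%, 12.8% and 17.8%. Itga1 in kidney had 89.3% of the start side covered and 14.7% of the end side. Itgb1 in heart had 72.7% and 8.88%, and Itgb6 in kidney had 93.9% and 37.2%. The order was the other way for Tns1 in lung, with 44.8% and 88.5%, and for Itgb5 in heart, with 53.4% and 85.5%. The annotated end lay inside a region for 13 genes in heart, 12 in kidney and 8 in liver, with 9 in lung, where 19.1%, 23.9%, 24.7% and 19.2% of all genes had one. At Tns1 the region ran 10.7 kb past that end in heart and 9.11 kb in kidney.

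**Figure D5:**
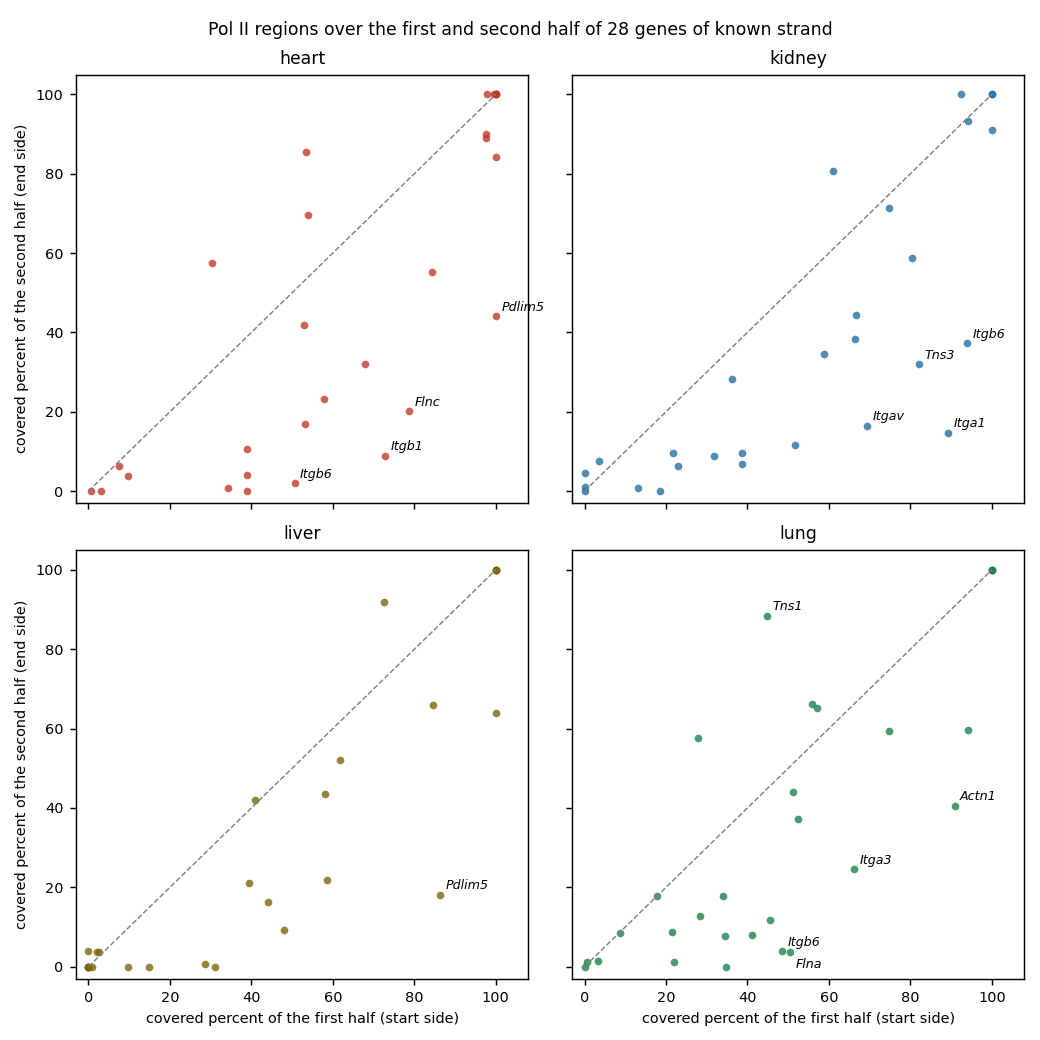
Covered percent of the start side (x axis) and the end side (y axis) of the 28 genes with an annotated start, split at the midpoint, 1 panel per organ. Points below the diagonal, where the start side is covered more, number 20 in heart, 20 in kidney and 14 in liver, with 18 in lung.

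Serum response factor, which drives many actin and adhesion genes, binds a short motif called the CArG box. A match on either strand was found in 3 of the 41 member windows of 300 bases, those of Vcl, Fermt2 and the second start of Itgb6, and in 1.52% of the 21263 windows of all genes. GGAATG, a motif of TEAD factors, was in 8 member windows (13.6% of all windows) and GGGCGG, a motif of Sp1, in 24 (46.2%). TGANTCA, a motif of AP-1, was in 5 (6.99%) and TATAAA in 4 (12.6%), all read on both strands. The windows with a CArG box are printed, with the box in capitals, because they show its place before the start, at position -227 for Vcl, -204 for Fermt2 and -50 for Itgb6. They are the 250 bases before the start from RefSeq on GRCm38.p6, 5′ to 3′ on the gene's strand, at chr14:20929148-20929397 (plus), chr14:45530066-45530315 (minus) and chr2:60673694-60673943 (minus).
Vcl: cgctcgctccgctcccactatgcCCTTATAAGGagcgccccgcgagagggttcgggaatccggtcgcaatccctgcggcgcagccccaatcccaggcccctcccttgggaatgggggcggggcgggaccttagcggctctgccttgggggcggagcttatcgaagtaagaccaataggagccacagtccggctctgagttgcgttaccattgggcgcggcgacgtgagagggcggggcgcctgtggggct
Fermt2: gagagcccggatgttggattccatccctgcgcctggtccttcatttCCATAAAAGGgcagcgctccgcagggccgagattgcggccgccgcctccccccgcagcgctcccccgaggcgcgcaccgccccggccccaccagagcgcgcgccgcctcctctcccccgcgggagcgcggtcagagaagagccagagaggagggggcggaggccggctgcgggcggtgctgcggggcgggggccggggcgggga
Itgb6 start at 48.9 kb: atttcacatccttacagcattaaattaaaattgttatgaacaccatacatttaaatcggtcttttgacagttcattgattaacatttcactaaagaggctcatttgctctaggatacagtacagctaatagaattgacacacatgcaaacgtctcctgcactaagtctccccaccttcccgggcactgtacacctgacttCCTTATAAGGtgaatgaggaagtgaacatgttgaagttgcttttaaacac
The starts of Vcl and Fermt2 lay in a region in all 4 lists. A match describes letters and says nothing on binding.

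The organs are mixtures of cell types, and more cells of a type cannot be told apart from more Pol II per cell. Markers of other cell types moved between the lists. Of 5 endothelial genes, 2 were covered in the heart list, 2 in the lung list and none in the others, and their summed level was 98.9 tags per kb of span in heart, 49.5 in lung, 7.65 in liver and 4.91 in kidney. Of 6 smooth muscle genes, only Des was covered in heart, only Tagln in kidney and in liver, and none in lung. The summed level was 57.8 in heart, 28.6 in liver, 19.9 in kidney and 7.56 in lung. Of the heart sum, 44.9 is Des, which cardiomyocytes also express, and 10.8 is Tagln. Tagln alone is 28.1 of the liver sum and 19.4 of the kidney sum. Acta2, a defining smooth muscle gene, was at 6.65% in heart and 4.12% in lung and at 0 in kidney and liver. No fibroblast gene of 5 was covered in any list, and their summed level ran from 1.27 in liver to 22.5 in heart. Of 5 leukocyte genes only Cd68 was covered, in all 4 lists. Their summed level was 49.5 in heart, 39.4 in kidney, 36.1 in lung and 30 in liver. Most of each sum is Cd68, at 42.7 in heart, 27.5 in kidney, 29.5 in lung and 29.4 in liver. Csf1r was highest in kidney, at 9.03, with 4.65 in heart, and Ptprc and Cd3e were at 0 in heart. The part of these cell types in the values of the 39 genes was not tested.

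Other genes of the same pathways were counted in the same way. The shares of all genes to set beside these counts are 16.1% in heart, 21.1% in kidney and 21.9% in liver, with 15.1% in lung. Of 13 other integrin genes, 1 was covered in heart, 2 in kidney and 2 in liver, with 1 in lung. With 13 genes, nothing is read from the gap to those shares. Itgb8, another partner of Itgav, was at 82.2% in kidney, with 0.810% in heart, 0.662% in lung and 0 in liver. Of 36 other adhesion adaptors and kinases, 14 were covered in heart, 8 in kidney and 8 in liver, with 7 in lung. Actn2, the alpha-actinin of the Z-disc, was at 100% in heart, 0.885% in kidney and 0 in liver and lung. Of 16 actin regulators linked to serum response factor, 7 were covered in heart and 8 in each other list, with Actb, which encodes beta-actin, at 100% in all 4.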

How the data were processed

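Per the labels, Pol II was precipitated with the 4H8 antibody from sheared chromatin of frozen organs, made into libraries by tagmentation and sequenced. Reads were handled with Bowtie2 2.2.8 and HOMER 4.8 against mm10, per the submitters' processing notes. Per the file headers, the authors called regions with findPeaks in its histone style. The headers record a p threshold of 0.001, fragments of 78 bp, a limit of 1 tag per bp and no control library. Each region's signal is its number of tags, scaled by the authors to 10000000 per library according to the headers. The score was written by the authors' caller and served here only to filter regions within a list. The clonal fold ratio, also deposited from the caller, was not used. Region coordinates are printed as deposited, and the deposited size equals end minus start.

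Gene spans came from a RefSeq table of GRCm38.p6, the assembly behind mm10, and starts, strands and sequences from RefSeq promoter windows, which held 28 of the 39 genes. Overlaps were computed with Python 3.11.15, numpy 2.4.6 and pandas 2.3.3, and intervals with scipy 1.17.1. The code was tested on simulated regions with known coverage. With 1 list per organ no test was run. How tags with several matching places were treated is not stated, so paralogs with near-identical stretches are uncertain. The members and lists were chosen with earlier results of these data known. Values in all lists were given for members among the 5 strongest regions of a list, covered in all lists or none, 50 points apart from the next organ, or paralogs of these, and the remaining members were added afterwards. Other thresholds, region filters and end windows were tried as alternatives.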

Additional observations from a re-analysis of the deposited data

How the results depend on the processing

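No paired analysis was possible because each organ has 1 list. Of 65 recomputed counts, 38 stayed within 1.5 times the main count and 27 did not. With 25% of the span as the threshold, 27 members were covered in heart, 25 in kidney and 24 in lung, 13 in every list and 3 in none. With 75%, 7 were covered in kidney, 6 in lung, 4 in every list and 25 in none. With the 50% of each list of highest score, the counts were 10 in kidney, 7 in liver, 5 in lung, 2 in every list and 23 in none. With equal covered length per list, kidney had 10. With only regions that overlap no other protein-coding gene, kidney had 9, liver 7, lung 7 and every list 2. With only regions of at least 20 tags per kb, an alternative chosen after seeing the data, kidney had 7, liver 9, lung 5, every list 4 and no list 24. A region near both gene ends was present for 21 members in heart, 15 in liver and 18 in lung. A gene listed without a region was not detectable at the depth of that list, which does not show that Pol II was absent.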
